A study of Homo sapiens with 12 samples.

Results

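The genes of cholesterol and fatty acid synthesis were examined in HPV+ squamous cell carcinoma cells of the head and neck (HNSCC) that were treated with JQ1. The 31 genes were listed by name as SREBP regulators, enzymes of the mevalonate and sterol steps, and enzymes of fatty acid synthesis and desaturation. Of these, 30 were matched to the 20738 genes of the count table, and ACACA, an acetyl-CoA carboxylase, was not analysed here. RNA-seq covered 12 libraries from UPCI-SCC-090 and from UM-SCC-47, tumor cell lines of this kind. Each line was incubated for 72 h, either with JQ1 at 500 nM or with its DMSO control at 0.1%, and each of the 4 groups had 3 libraries. JQ1 is a small molecule that occupies the bromodomains of BET proteins, which read acetylated histones, and the comparison asks how the genes of this pathway respond when that reading is blocked. Both lines carry HPV, each line is 1 tumor model, and libraries were made from total RNA depleted of ribosomal RNA with a stranded kit.

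As background, cholesterol and fatty acids are both built from acetyl-CoA, which ACLY makes from citrate in the cytosol. The fatty acid branch runs through FASN, the fatty acid synthase, and the chains are then elongated by ELOVL6 and desaturated by SCD, FADS1 and FADS2. The sterol branch runs through mevalonate to farnesyl diphosphate, squalene and lanosterol, and from there to cholesterol. The transcription factors SREBP1 and SREBP2, encoded by SREBF1 and SREBF2, drive these genes. SCAP escorts them from the endoplasmic reticulum when sterols are low, and INSIG1 and INSIG2 hold SCAP back when sterols are high. SREBP1 is known mainly for the fatty acid genes and SREBP2 mainly for the sterol genes.

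RefSeq promoter windows (GRCh38.p14, 250 bases before to 50 after a gene start) were found for 27 of the 31 genes, as 37 windows, and none was found for FASN, ACAT2, FDFT1 and SQLE. Both strands were searched for the sterol regulatory element TCACNCCAC, the E-box CACGTG and the NF-Y box CCAAT. The sterol regulatory element was in 1 of the 37 windows, that of SREBF2, and in 1.13% of all 35116 windows. The E-box was in 5 of the 37 windows (13.5%), those of INSIG1, LSS, SC5D and SCAP, and in 7.26% of all windows. The NF-Y box was in 24 of the 37 windows (64.9%) and in 34.6% of all windows. A match is a description of the letters only, and windows of 1 gene overlap in part. The windows below belong to 5 genes on which the results turn: both SREBP genes, 2 desaturases that fell with JQ1 in UPCI-SCC-090, and TM7SF2, which rose in both lines. Capitals mark the motifs, which did not overlap each other, and every window is written 5′ to 3′ on the strand of its gene. SREBF1 (chr17:17836937-17837236, minus strand) held none of the motifs. SREBF2 (chr22:41832855-41833154, plus strand) held a sterol regulatory element 133 bases and an NF-Y box 106 bases before the start. SCD (chr10:100346983-100347282, plus strand) held NF-Y boxes 229 and 186 bases before the start. One of the windows of FADS2 (chr11:61816154-61816453, plus strand) held an NF-Y box just after the start, and TM7SF2 (chr11:65111622-65111921, plus strand) held one 74 bases before it.
SREBF1: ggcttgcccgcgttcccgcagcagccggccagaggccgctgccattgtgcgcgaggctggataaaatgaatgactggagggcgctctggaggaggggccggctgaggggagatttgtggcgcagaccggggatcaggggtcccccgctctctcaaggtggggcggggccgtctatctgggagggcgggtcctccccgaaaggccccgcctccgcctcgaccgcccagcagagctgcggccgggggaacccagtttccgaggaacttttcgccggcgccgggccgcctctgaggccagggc
SREBF2: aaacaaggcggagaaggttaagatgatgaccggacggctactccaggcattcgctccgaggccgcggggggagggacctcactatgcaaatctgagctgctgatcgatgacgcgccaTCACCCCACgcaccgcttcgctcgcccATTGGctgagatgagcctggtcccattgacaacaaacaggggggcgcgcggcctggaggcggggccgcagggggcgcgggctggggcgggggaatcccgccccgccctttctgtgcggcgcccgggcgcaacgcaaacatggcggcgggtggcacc
SCD: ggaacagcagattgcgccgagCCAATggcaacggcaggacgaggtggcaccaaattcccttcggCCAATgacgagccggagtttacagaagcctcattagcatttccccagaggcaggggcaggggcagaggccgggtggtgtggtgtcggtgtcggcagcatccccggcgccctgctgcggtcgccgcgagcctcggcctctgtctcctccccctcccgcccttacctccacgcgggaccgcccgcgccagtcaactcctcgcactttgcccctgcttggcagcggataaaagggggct
FADS2: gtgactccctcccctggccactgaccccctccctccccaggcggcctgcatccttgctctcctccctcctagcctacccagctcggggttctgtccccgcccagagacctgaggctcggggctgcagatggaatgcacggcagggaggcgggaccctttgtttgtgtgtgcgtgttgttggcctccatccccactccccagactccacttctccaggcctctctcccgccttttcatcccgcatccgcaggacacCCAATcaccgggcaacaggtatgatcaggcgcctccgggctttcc
TM7SF2: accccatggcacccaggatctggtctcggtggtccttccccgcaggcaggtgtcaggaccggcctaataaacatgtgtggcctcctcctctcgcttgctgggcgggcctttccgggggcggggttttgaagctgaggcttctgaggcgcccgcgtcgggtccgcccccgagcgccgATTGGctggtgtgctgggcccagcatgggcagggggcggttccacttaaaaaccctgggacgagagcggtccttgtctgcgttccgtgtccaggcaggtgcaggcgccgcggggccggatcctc

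The libraries held 20349275 to 30788657 estimated counts. Levels are given as CPM, the count of a gene relative to the library total, after TMM scaling over the 12 libraries. Each log2 fold change, JQ1 over DMSO unless stated, is given ± its standard error (SE) from edgeR. The biological coefficient of variation was 46.95% in UPCI-SCC-090 and 31.6% in UM-SCC-47. Library levels trended with the GC content of genes, at −0.86 (UPCI-SCC-090 JQ1 replicate 3), 0.77 (UPCI-SCC-090 DMSO replicate 2) and −0.59 (UM-SCC-47 JQ1 replicate 3) on the log2 scale per 10 percentage points in the steepest ones. All 8 squamous epithelial markers were detected, with summed levels of 2276 to 4428 CPM, whereas the 5 hepatocyte markers summed to at most 0.438 CPM in any library. Of the 8, 7 had a mean over 1 CPM in UPCI-SCC-090 with JQ1, and all 8 did in the other groups. The 6 adipocyte markers summed to 4.25 to 11.1 CPM over all libraries, and FABP4 was at 0 in 3 of the 4 groups. The 6 fibroblast markers summed in UPCI-SCC-090 to 2.69 to 5.47 CPM with JQ1, against 17.4 to 29.2 CPM with DMSO, and in UM-SCC-47 to 4.95 to 6.07 CPM with JQ1, against 12.8 to 14.9 CPM with DMSO, with 1 of the 6 above a mean of 1 CPM in each group and LUM at 0 in 3 groups. The 4 endothelial markers summed in UPCI-SCC-090 to 0.23 to 0.29 CPM with JQ1, against 1.60 to 1.91 CPM with DMSO, and in UM-SCC-47 to 2.22 to 3.203 CPM with JQ1, against 7.90 to 8.23 CPM with DMSO. The 5 leukocyte markers summed in UM-SCC-47 to 27.8 to 38.7 CPM with JQ1, against 40.8 to 46.2 CPM with DMSO, with CD3E at 0 in both groups, and overlapped in UPCI-SCC-090 at 6.29 to 12.4 CPM with JQ1, against 6.22 to 8.58 CPM with DMSO. The part of these markers in the results was not tested. These are bulk samples, so fewer cells of a type and less RNA per cell cannot be told apart. The sources do not say that the 3 libraries of a group came from separate cultures, so the p-values reflect the spread among these libraries alone, and that spread may be technical.

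With JQ1 the fatty acid genes and both SREBP genes fell in UPCI-SCC-090, few sterol enzymes did, and TM7SF2 rose in both lines. In UPCI-SCC-090, 12 of the 29 genes tested fell with JQ1 (41.4%) and 1 rose (3.45%), against 20.4% lower and 7.67% higher of all 13150 genes tested (edgeR adjusted p under 0.05). The median log2 fold change was −0.76 over the 29 genes and −0.14 over all genes. In UM-SCC-47, 8 of 30 fell (26.7%) and 2 rose (6.67%), against 25.5% lower and 16.1% higher of all 13440 genes tested, so the share that fell was near that of all genes. The median there was −0.32, against −0.03 over all genes. Past an absolute log2 fold change of 1, 11 fell and 1 rose in UPCI-SCC-090 (19.6% and 6.06% of all genes), and 3 fell and 1 rose in UM-SCC-47 (17.2% and 7.83% of all genes). The JQ1 libraries lay wholly below the DMSO libraries for 11 genes and above for 1 in UPCI-SCC-090 (24.4% and 16.1% of all genes), and for 12 and 2 in UM-SCC-47 (32.5% and 22.8% of all genes). In UPCI-SCC-090 the 12 genes that fell did so by 45.0% (FDPS) to 95.4% (FASN). Without DMSO replicate 3, JQ1 replicate 1 or JQ1 replicate 3 of UPCI-SCC-090, 7, 5 and 7 genes fell there. In these fits 1737, 1009 and 1628 of all genes fell, against 2680 in the main fit. In UM-SCC-47, 1 rose without DMSO replicate 1, DMSO replicate 3 or JQ1 replicate 1, and 5 without JQ1 replicate 3. Of all genes 1198, 1329, 1536 and 3051 rose in the same order, against 2163 in the main fit. Of all genes called in UPCI-SCC-090, 27.4% were higher with TMM scaling, 42.3% with RLE size factors and 17.1% with library size only. In UM-SCC-47 these shares were 38.7%, 48.0% and 24.1%. RLE size factors placed the median of all genes at 0.14 in UPCI-SCC-090 and 0.12 in UM-SCC-47, and library size only at −0.38 and −0.28.

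**Figure D1:**
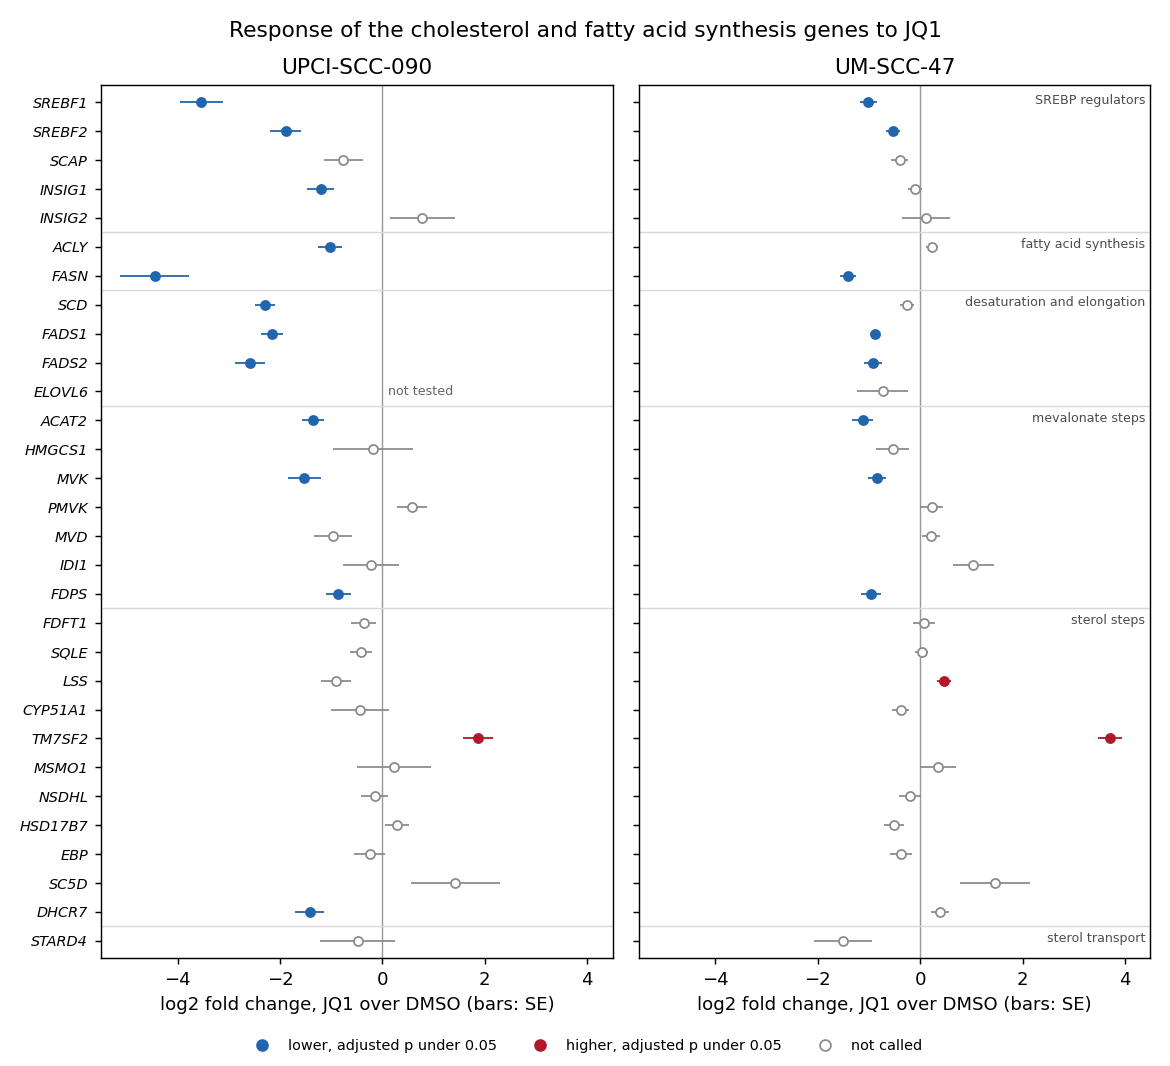
Log2 fold change of JQ1 over DMSO for the 30 matched genes, grouped by role, in UPCI-SCC-090 (left) and UM-SCC-47 (right). Points are edgeR estimates with bars of 1 SE, filled where the adjusted p was under 0.05 (blue lower, red higher) and open where it was not. FASN and SREBF1 stand farthest left in UPCI-SCC-090, at −4.45 and −3.54, and TM7SF2 farthest right in both lines.

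Both SREBP genes fell with JQ1 in each line. SREBF1 (ENSG00000072310, chromosome 17 from 17713713 to 17740316 of GRCh37, minus strand) was at 29.0, 36.4 and 11.5 CPM in the UPCI-SCC-090 libraries with JQ1, against 194, 359 and 252 CPM in those with DMSO. In UM-SCC-47 it was at 48.2, 37.0 and 42.5 CPM with JQ1, against 79.9, 97.2 and 77.7 CPM with DMSO. The groups did not overlap in either line. The log2 fold change was −3.54 ± 0.42 in UPCI-SCC-090 (adjusted p = 0.00403 by edgeR) and −1.01 ± 0.16 in UM-SCC-47 (adjusted p = 0.00337 by edgeR). SREBF1 was called in each of the 16 alternatives run in UPCI-SCC-090, and in UM-SCC-47 in all but the fit over the 12 libraries (adjusted p = 0.0651 by edgeR). With the GC trends of the libraries removed, the log2 fold change in UPCI-SCC-090 was −2.71, and the transcript has a GC content of 63.4%. RAI1, on the opposite strand over part of SREBF1, also fell by 4.005 in UPCI-SCC-090 and 3.16 in UM-SCC-47 on the log2 scale.

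SREBF2, which encodes SREBP2, was at 55.7, 83.8 and 36.3 CPM with JQ1 in UPCI-SCC-090, against 148, 245 and 199 CPM with DMSO. In UM-SCC-47 its levels were 158, 135 and 134 CPM with JQ1, against 197, 229 and 183 CPM with DMSO. The JQ1 libraries lay below the DMSO libraries in both lines, by a smaller margin in UM-SCC-47. The log2 fold change was −1.89 ± 0.30 in UPCI-SCC-090 (adjusted p = 0.00595 by edgeR) and −0.53 ± 0.13 in UM-SCC-47 (adjusted p = 0.0204 by edgeR). In UPCI-SCC-090 the call was lost only without JQ1 replicate 1 (adjusted p = 0.0617 by edgeR). In UM-SCC-47 it was lost in 9 of 16 alternatives (edgeR or DESeq2 adjusted p up to 0.216), among them without DMSO replicate 1, DMSO replicate 2 or JQ1 replicate 3 (adjusted p = 0.0732, 0.072 and 0.0876 by edgeR).

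INSIG1, the sterol-responsive retention protein, was at 121, 82.0 and 95.9 CPM with JQ1 in UPCI-SCC-090, against 231, 183 and 231 CPM with DMSO. UM-SCC-47 had 83.3, 100.1 and 77.6 CPM with JQ1, against 90.2, 92.9 and 94.1 CPM with DMSO. The groups were apart in UPCI-SCC-090, where INSIG1 fell by 1.21 ± 0.26 on the log2 scale (adjusted p = 0.0166 by edgeR). They overlapped in UM-SCC-47 (−0.10 ± 0.13, adjusted p = 0.57 by edgeR). The UPCI-SCC-090 call was lost without DMSO replicate 3, JQ1 replicate 1 or JQ1 replicate 3 (adjusted p = 0.0695, 0.0688 and 0.0532 by edgeR) and by DESeq2 (adjusted p = 0.0965). SCAP had 47.8, 89.9 and 30.2 CPM with JQ1 in UPCI-SCC-090, against 57.1, 112 and 87.8 CPM with DMSO, and 41.7, 30.3 and 32.8 CPM with JQ1 in UM-SCC-47, against 43.3, 51.5 and 42.2 CPM with DMSO. The groups overlapped in UPCI-SCC-090 and did not in UM-SCC-47, and neither difference passed the test (adjusted p = 0.197 and 0.107 by edgeR). INSIG2 had 15.2, 9.49 and 31.2 CPM with JQ1 in UPCI-SCC-090, against 14.5, 5.47 and 11.7 CPM with DMSO, and 18.1, 9.95 and 39.6 CPM with JQ1 in UM-SCC-47, against 19.1, 19.8 and 23.1 CPM with DMSO. Its groups overlapped in both lines.

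In UPCI-SCC-090 all 5 genes of the fatty acid branch that could be tested (ACLY, FASN, SCD, FADS1 and FADS2) fell, with a median log2 fold change of −2.29, whereas in UM-SCC-47 FASN, FADS1 and FADS2 fell of 6 tested, with a median of −0.81. The share that fell was 100% in UPCI-SCC-090, against 20.4% of all genes, and 50% in UM-SCC-47, against 25.5% of all genes. FASN (ENSG00000169710, chromosome 17 from 80036214 to 80056170 of GRCh37, minus strand), which makes palmitate, was at 31.4, 28.8 and 5.03 CPM with JQ1 in UPCI-SCC-090, against 298, 591 and 388 CPM with DMSO. UM-SCC-47 had 113, 84.1 and 106 CPM with JQ1, against 250.2, 299.5 and 247 CPM with DMSO. Every JQ1 library of a line was below every DMSO library of that line, and JQ1 replicate 3 of UPCI-SCC-090 was the lowest of all. The log2 fold change was −4.45 ± 0.68 in UPCI-SCC-090, a fall by 95.4% (adjusted p = 0.00559 by edgeR), and −1.41 ± 0.16 in UM-SCC-47, a fall by 62.2% (adjusted p = 9.79e-04 by edgeR). Without JQ1 replicate 3 the log2 fold change in UPCI-SCC-090 was −3.83, and with the GC trends removed −3.51, each over 1.5 times smaller as a fold and still called (adjusted p = 0.00699 and 0.00218 by edgeR). FASN has a transcript GC content of 65.3%.

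SCD, the stearoyl-CoA desaturase that makes oleate, was at 326, 308 and 222 CPM with JQ1 in UPCI-SCC-090, against 1043, 1462 and 1362 CPM with DMSO. UM-SCC-47 had 856, 959 and 745 CPM with JQ1, against 1005, 1054 and 980.4 CPM with DMSO. The libraries of the groups did not overlap in either line, but the gap was wide in UPCI-SCC-090 and narrow in UM-SCC-47. The log2 fold change was −2.29 ± 0.19 in UPCI-SCC-090 (adjusted p = 0.0037 by edgeR) and −0.26 ± 0.13 in UM-SCC-47, where it did not pass the test (adjusted p = 0.162 by edgeR). SCD has a transcript GC content of 46.5%, and its log2 fold change in UPCI-SCC-090 was −2.32 with the GC trends removed.

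FADS1 and FADS2, the delta-5 and delta-6 desaturases of polyunsaturated fatty acids, overlap on opposite strands of chromosome 11. FADS1 was at 51.4, 53.0 and 32.1 CPM with JQ1 in UPCI-SCC-090, against 178, 199 and 179 CPM with DMSO, and at 108, 108 and 101 CPM with JQ1 in UM-SCC-47, against 192, 196 and 194 CPM with DMSO. FADS2 was at 62.4, 77.6 and 38.4 CPM with JQ1 in UPCI-SCC-090, against 226, 409.6 and 341 CPM with DMSO, and at 13.7, 13.5 and 11.02 CPM with JQ1 in UM-SCC-47, against 24.8, 25.9 and 21.0 CPM with DMSO. Both genes were lower with JQ1 in every library of each line. The log2 fold changes of FADS1 were −2.15 ± 0.21 and −0.89 ± 0.10 in UPCI-SCC-090 and UM-SCC-47 (adjusted p = 0.0037 and 9.02e-04 by edgeR), and those of FADS2 −2.58 ± 0.29 and −0.92 ± 0.17 (adjusted p = 0.00379 and 0.0064 by edgeR). Both genes were called under all 16 alternatives in each line. FEN1, a nuclease of DNA replication on the same strand within FADS2, fell as well, by 1.03 in UPCI-SCC-090 and 1.74 in UM-SCC-47 on the log2 scale, and how reads were divided between them was not tested.

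ACLY was at 243, 338 and 178 CPM with JQ1 in UPCI-SCC-090, against 355, 568 and 492 CPM with DMSO, and at 275, 273 and 233 CPM with JQ1 in UM-SCC-47, against 219, 238 and 204 CPM with DMSO. It fell in UPCI-SCC-090, with a log2 fold change of −1.03 ± 0.24 (adjusted p = 0.0207 by edgeR), and was at 0.23 ± 0.12 in UM-SCC-47 (adjusted p = 0.181 by edgeR). The UPCI-SCC-090 call was lost in 9 of 16 alternatives (edgeR or DESeq2 adjusted p up to 0.383), among them without DMSO replicate 2, DMSO replicate 3, JQ1 replicate 1 or JQ1 replicate 3 (adjusted p = 0.0773, 0.0779, 0.2 and 0.13 by edgeR). ELOVL6, which elongates palmitate, was too low for the test in UPCI-SCC-090, at 0.182, 0.0484 and 0.384 CPM with JQ1, against 2.13, 0.263 and 0.614 CPM with DMSO. In UM-SCC-47 it had 12.6, 6.74 and 25.8 CPM with JQ1, against 26.0, 16.7 and 31.8 CPM with DMSO, and the groups overlapped (adjusted p = 0.289 by edgeR).

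**Figure D2:**
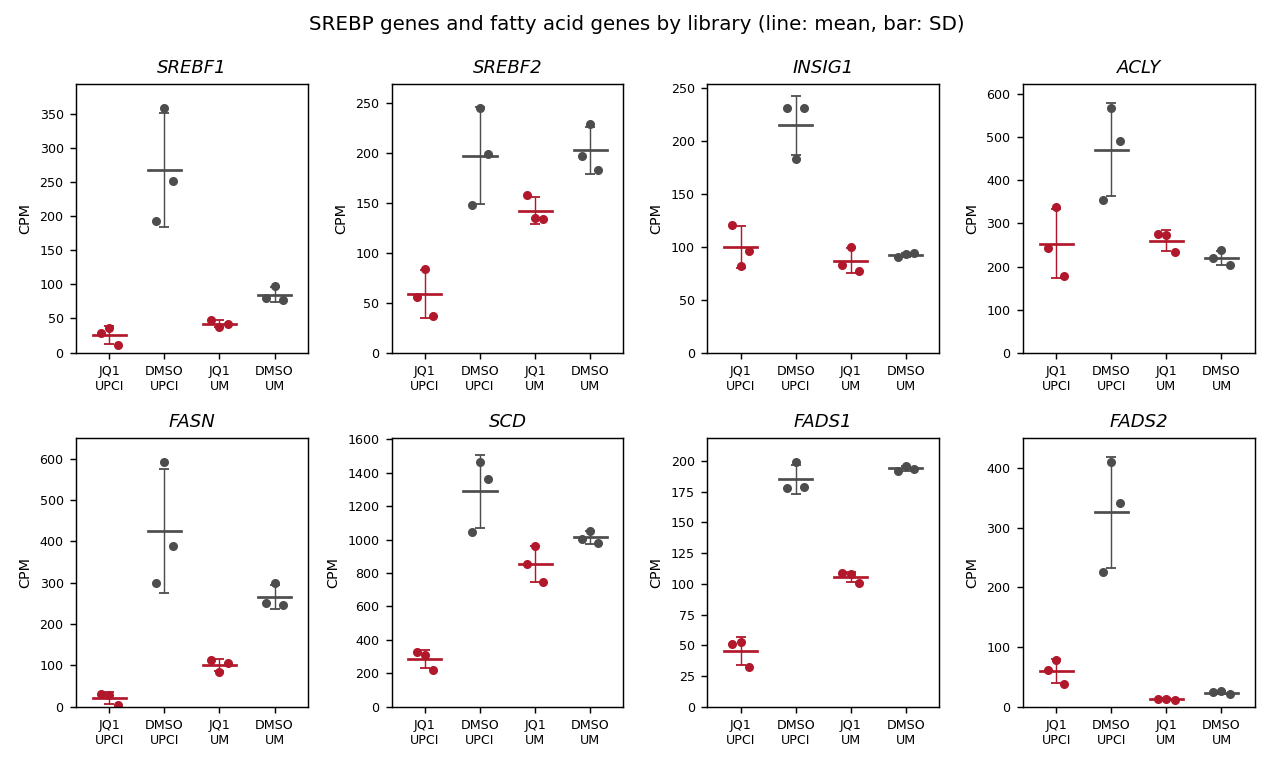
CPM of SREBF1, SREBF2, INSIG1 and the fatty acid genes ACLY, FASN, SCD, FADS1 and FADS2 in each library, with JQ1 (red) left of DMSO (gray) for UPCI-SCC-090 (UPCI) and then UM-SCC-47 (UM). Lines are means and bars SDs over 3 libraries. In UPCI-SCC-090 every JQ1 library lies below every DMSO library in all 8 panels, whereas in UM-SCC-47 the groups overlap for INSIG1 and ACLY.

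Among the 7 genes of the mevalonate steps, ACAT2, MVK and FDPS fell in both lines and the other 4 were not called in either. The share that fell was thus 42.9% in each line, against 20.4% of all genes in UPCI-SCC-090 and 25.5% in UM-SCC-47. ACAT2, which joins acetyl-CoA units, was at 112, 125 and 89.2 CPM with JQ1 in UPCI-SCC-090, against 189.8, 299 and 286 CPM with DMSO, and at 63.7, 97.9 and 63.0 CPM with JQ1 in UM-SCC-47, against 175, 159.9 and 150.5 CPM with DMSO. The groups did not overlap, with log2 fold changes of −1.36 ± 0.21 in UPCI-SCC-090 and −1.13 ± 0.20 in UM-SCC-47 (adjusted p = 0.00593 and 0.00561 by edgeR). MVK, the mevalonate kinase, was at 17.8, 26.2 and 13.2 CPM with JQ1 in UPCI-SCC-090, against 33.3, 63.5 and 53.7 CPM with DMSO, and at 19.5, 22.5 and 16.2 CPM with JQ1 in UM-SCC-47, against 33.9, 37.7 and 31.8 CPM with DMSO. Its JQ1 libraries were below its DMSO libraries in each line, with log2 fold changes of −1.52 ± 0.33 and −0.84 ± 0.17 (adjusted p = 0.0161 and 0.00958 by edgeR). FDPS, the farnesyl diphosphate synthase, was at 267, 342 and 214 CPM with JQ1 in UPCI-SCC-090, against 302, 564 and 516 CPM with DMSO, and at 102, 153 and 98.8 CPM with JQ1 in UM-SCC-47, against 231, 238 and 208 CPM with DMSO. Its groups overlapped in UPCI-SCC-090 and not in UM-SCC-47, with log2 fold changes of −0.86 ± 0.25 and −0.95 ± 0.19 (adjusted p = 0.0441 and 0.00911 by edgeR).

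In UM-SCC-47 the calls of ACAT2 and FDPS were kept in all 16 alternatives, and that of MVK was lost only in the fit over the 12 libraries (adjusted p = 0.0696 by edgeR). In UPCI-SCC-090 these calls were less stable. ACAT2 lost its call without JQ1 replicate 1 (adjusted p = 0.0704 by edgeR), and MVK without JQ1 replicate 1, JQ1 replicate 3, DMSO replicate 2 or DMSO replicate 3 (adjusted p = 0.15, 0.08, 0.0618 and 0.0675 by edgeR). FDPS lost it without any 1 library other than DMSO replicate 1, with edgeR adjusted p up to 0.281 without JQ1 replicate 1. ACAT2 and FDPS also lost the call by DESeq2 (adjusted p = 0.0594 and 0.405), MVK and FDPS with RLE size factors (adjusted p = 0.0722 and 0.252 by edgeR), and all 3 without the libraries of the steepest GC trend (adjusted p = 0.108 for ACAT2, 0.175 for MVK and 0.533 for FDPS by edgeR). Of the members not called, HMGCS1 had log2 fold changes of −0.18 ± 0.78 in UPCI-SCC-090 and −0.54 ± 0.33 in UM-SCC-47. PMVK had 0.57 ± 0.29 and 0.23 ± 0.22, MVD −0.97 ± 0.37 and 0.21 ± 0.18, and IDI1 −0.22 ± 0.55 and 1.04 ± 0.41 in the same order of lines (edgeR adjusted p 0.0849 to 0.899 over the 4 genes).

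Of the 11 genes of the sterol steps, 1 fell and 1 rose in UPCI-SCC-090 and 2 rose in UM-SCC-47, with medians of −0.25 and 0.08. In UPCI-SCC-090 these are 9.09% lower and 9.09% higher, against 20.4% and 7.67% of all genes. In UM-SCC-47 they are 0% lower and 18.2% higher, against 25.5% and 16.1% of all genes. The shares that rose were thus near those of all genes. Over the 18 mevalonate and sterol enzymes together the median was −0.31 in UPCI-SCC-090 and 0.05 in UM-SCC-47, and in UM-SCC-47 it was −0.21 with library size only. In UPCI-SCC-090, where 4 of the 18 fell (22.2%, near the 20.4% of all genes), the median was −0.02 with RLE size factors and −0.0046 by DESeq2, with 1 gene lower under each. TM7SF2 (ENSG00000149809, chromosome 11 from 64879317 to 64883856 of GRCh37, plus strand), a sterol delta-14 reductase, was at 105, 159 and 89.0 CPM with JQ1 in UPCI-SCC-090, against 19.2, 36.7 and 32.9 CPM with DMSO. In UM-SCC-47 it was at 90.6, 113 and 69.2 CPM with JQ1, against 6.79, 7.78 and 5.98 CPM with DMSO. All JQ1 libraries were far above the DMSO libraries of their line. TM7SF2 rose by a log2 fold change of 1.87 ± 0.30 in UPCI-SCC-090, 3.65-fold (adjusted p = 0.00642 by edgeR), and of 3.72 ± 0.24 in UM-SCC-47, 13.1-fold (adjusted p = 1.86e-04 by edgeR), and was called under all 16 alternatives in each line. VPS51, which overlaps it on the same strand, was not called in either line (log2 fold changes of −0.93 ± 0.36 in UPCI-SCC-090 and 0.14 ± 0.19 in UM-SCC-47).

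DHCR7, which catalyses the last reduction to cholesterol, was at 131, 169.6 and 97.4 CPM with JQ1 in UPCI-SCC-090, against 202, 407 and 369 CPM with DMSO, and at 179, 206 and 138 CPM with JQ1 in UM-SCC-47, against 128, 148 and 121 CPM with DMSO. It fell in UPCI-SCC-090, with a log2 fold change of −1.42 ± 0.28 (adjusted p = 0.0128 by edgeR), and overlapped between groups in UM-SCC-47 (0.38 ± 0.18, adjusted p = 0.129 by edgeR). Without DMSO replicate 3, JQ1 replicate 1 or JQ1 replicate 3 the UPCI-SCC-090 call was lost (adjusted p = 0.0557, 0.105 and 0.0635 by edgeR), as it was with RLE size factors (adjusted p = 0.0594 by edgeR), by DESeq2 (adjusted p = 0.0694) and without the libraries of the steepest GC trend (adjusted p = 0.147 by edgeR). LSS, which closes the sterol rings, was at 90.7, 140.2 and 64.6 CPM with JQ1 in UPCI-SCC-090, against 115, 208 and 179.6 CPM with DMSO, and at 157, 159.9 and 128 CPM with JQ1 in UM-SCC-47, against 101, 119 and 98.9 CPM with DMSO. LSS rose in UM-SCC-47 by a log2 fold change of 0.47 ± 0.14 (adjusted p = 0.0387 by edgeR), a call lost without DMSO replicate 1, DMSO replicate 3, JQ1 replicate 1 or JQ1 replicate 2 (adjusted p = 0.152, 0.142, 0.118 and 0.059 by edgeR). In UPCI-SCC-090 LSS had −0.90 ± 0.29 and missed the threshold (adjusted p = 0.0635 by edgeR), but passed it with the replicate number as a block (adjusted p = 0.0363 by edgeR).

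The other sterol genes did not pass the test in either line, although STARD4 and HSD17B7 did not overlap between the groups of UM-SCC-47, where both were lower with JQ1. FDFT1 and SQLE, which make and epoxidise squalene, had log2 fold changes of −0.37 ± 0.24 and −0.42 ± 0.22 in UPCI-SCC-090 and of 0.08 ± 0.22 and 0.03 ± 0.13 in UM-SCC-47. CYP51A1, MSMO1, NSDHL, HSD17B7, EBP and SC5D ranged in their estimates between −0.51 and 1.46 over both lines. STARD4, a sterol carrier, had −0.48 ± 0.73 in UPCI-SCC-090 and −1.504 ± 0.57 in UM-SCC-47. In HMGCS1, IDI1, MSMO1, SC5D, STARD4 and INSIG2, with transcript GC contents of 37.0% to 40.8%, JQ1 replicate 3 was the highest JQ1 library of each line, and these are the JQ1 libraries with the steepest fall of level with GC content. SC5D, for example, was at 27.1, 14.3 and 90.2 CPM with JQ1 in UPCI-SCC-090, against 23.9, 6.39 and 18.0 CPM with DMSO. With the GC trends removed, SC5D was called higher in both lines, with log2 fold changes of 1.21 in UPCI-SCC-090 and 0.79 in UM-SCC-47 (adjusted p = 0.00141 and 0.0111 by edgeR). Likewise PMVK was called higher at 1.20 in UPCI-SCC-090 (adjusted p = 0.00124 by edgeR) and STARD4 lower at −1.99 in UM-SCC-47 (adjusted p = 6.03e-04 by edgeR). Calls over all genes were also more frequent under this correction. In UPCI-SCC-090, 3210 of all genes were called higher, against 1009 in the main fit. In UM-SCC-47, 3314 were called higher and 3639 lower, against 2163 and 3431 in the main fit.

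**Figure D3:**
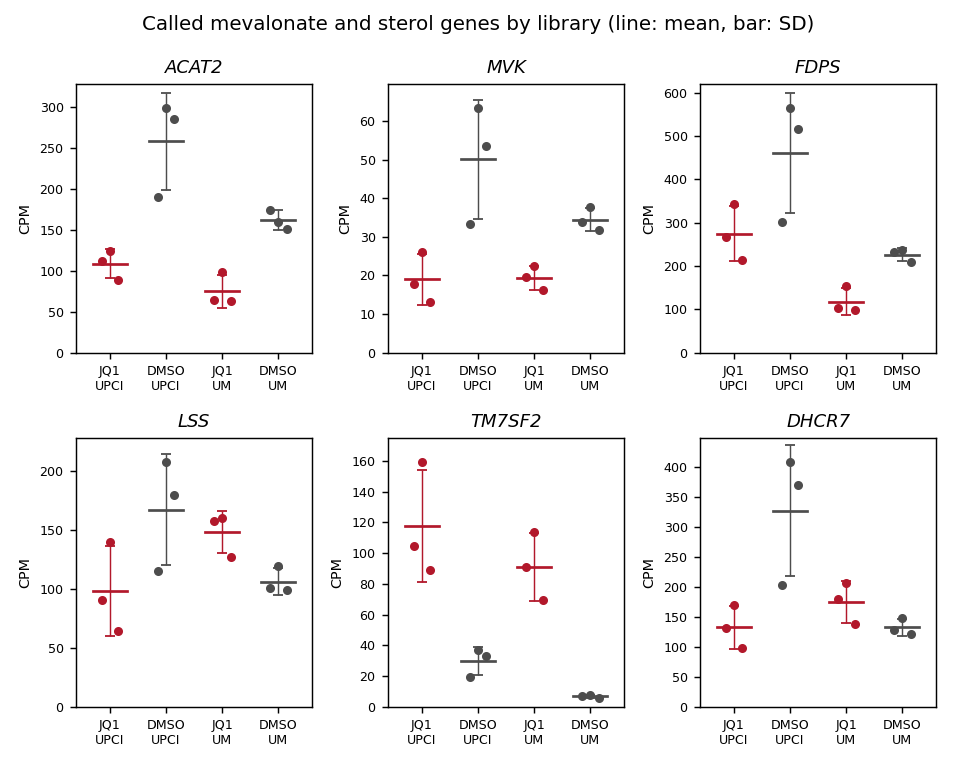
CPM in each library of the mevalonate and sterol genes called in at least 1 line, with JQ1 (red) left of DMSO (gray) for UPCI-SCC-090 (UPCI) and then UM-SCC-47 (UM), with means (lines) and SDs (bars) over 3 libraries. TM7SF2 is the only one of the 6 genes whose JQ1 libraries lie above the DMSO libraries in both lines, and ACAT2 and MVK lie below in both.

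Levels were also summed over the genes of each branch. The 6 fatty acid genes summed in UPCI-SCC-090 to 666 ± 170 CPM with JQ1, against 2698 ± 567 CPM with DMSO, and in UM-SCC-47 to 1348 ± 114 CPM with JQ1, against 1741 ± 78.8 CPM with DMSO (SD, n = 3 each). The 7 mevalonate genes summed in UPCI-SCC-090 to 754 ± 35.7 CPM with JQ1, against 1107 ± 178 CPM with DMSO, and in UM-SCC-47 to 493 ± 60.2 CPM with JQ1, against 704 ± 19.0 CPM with DMSO. The 11 sterol genes summed in UPCI-SCC-090 to 904 ± 93.3 CPM with JQ1, against 1120 ± 182 CPM with DMSO, where the libraries overlapped, and in UM-SCC-47 to 1110 ± 185 CPM with JQ1, against 942 ± 30.8 CPM with DMSO, where they did not. The lowest JQ1 sum there was 982 CPM, with TM7SF2 at 69.2 CPM of it. The highest DMSO sum was 966 CPM, with TM7SF2 at 7.78 CPM, so the gap rests on TM7SF2. Of the fatty acid sum in UM-SCC-47 with DMSO, SCD alone made up 1013 CPM on average. Single genes thus weigh heavily in these sums. The ratio of the summed fatty acid level to the summed mevalonate and sterol level does not depend on the scaling of a library. It was 0.424, 0.455 and 0.314 with JQ1 in UPCI-SCC-090, against 1.16, 1.33 and 1.13 with DMSO. In UM-SCC-47 it was 0.945, 0.796 and 0.796 with JQ1, against 1.02, 1.104 and 1.05 with DMSO. The ratio was thus lower in every JQ1 library than in every DMSO library of its line. Neither the sums nor the ratio were tested.

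**Figure D4:**
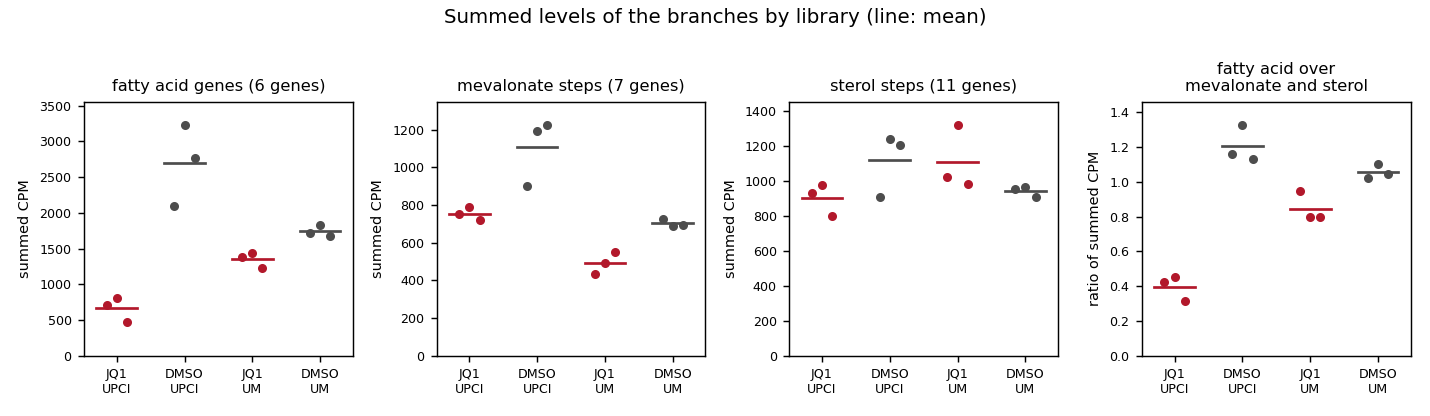
Summed CPM of the fatty acid, mevalonate and sterol genes, and the ratio of the first to the other two, in each library, with JQ1 (red) left of DMSO (gray) for UPCI-SCC-090 (UPCI) and then UM-SCC-47 (UM). Lines are means of 3 libraries. The ratio is at most 0.455 in the JQ1 libraries of UPCI-SCC-090 and at least 0.796 in all other libraries.

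The response was compared between the lines by the interaction of line and treatment, where a negative value means a lower log2 fold change in UPCI-SCC-090. Of 30 genes, 8 had a lower log2 fold change in UPCI-SCC-090 (26.7%) and 0 a higher one, against 3.63% lower and 2.93% higher of all 14396 genes tested (edgeR adjusted p under 0.05). At an unadjusted p under 0.05, 11 were lower and 1 higher, against 10.6% lower and 9.28% higher of all genes, and DESeq2 called 6 lower and 0 higher. Among all 18360 genes in the DESeq2 fit, 586 were lower and 439 higher. The 8 were SREBF1, INSIG1, FASN, SCD, FADS1, FADS2, TM7SF2 and DHCR7, so 4 of them belong to the fatty acid branch (66.7% of its 6 genes, against 3.63% of all genes). SCD differed by −1.93 ± 0.28 (adjusted p = 0.00246 by edgeR) and was called in all 21 alternatives. SREBF1 differed by −2.39 ± 0.52 and FASN by −2.90 ± 0.72 (adjusted p = 0.0189 and 0.0351 by edgeR). FADS1 differed by −1.15 ± 0.28 and FADS2 by −1.55 ± 0.40 (adjusted p = 0.0315 and 0.0412 by edgeR), and INSIG1 by −1.02 ± 0.28 (adjusted p = 0.0493 by edgeR). TM7SF2 rose in both lines and by less in UPCI-SCC-090, with a difference of −1.74 ± 0.43 (adjusted p = 0.0353 by edgeR), and DHCR7 differed by −1.69 ± 0.41 (adjusted p = 0.0304 by edgeR).

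Except for SCD, these differences stood close to the threshold. SREBF1 lost its call without UM-SCC-47 DMSO replicate 1, UM-SCC-47 DMSO replicate 3 or UM-SCC-47 JQ1 replicate 1 (adjusted p = 0.0615, 0.0611 and 0.0565 by edgeR). FASN lost it without UPCI-SCC-090 DMSO replicate 2, UM-SCC-47 JQ1 replicate 1 or any 1 of the UM-SCC-47 DMSO libraries (edgeR adjusted p 0.0758 to 0.0974). FADS1, FADS2, TM7SF2, DHCR7 and INSIG1 lost it in 7 to 9 of the 12 fits without 1 library (edgeR adjusted p up to 0.142), with values that kept their sign. All 5 lost it without any 1 of the UM-SCC-47 DMSO libraries, UM-SCC-47 JQ1 replicates 1 and 2, or UPCI-SCC-090 DMSO replicate 2. Without 1 of those 6 libraries, or without UPCI-SCC-090 JQ1 replicate 1 or 3, 1 to 4 of the 30 genes were called lower. Calls over all genes dropped too, to between 256 and 438 lower in these fits, against 523 in the main fit. SREBF2, with a difference of −1.24 ± 0.40, and ACLY, with −1.14 ± 0.35, missed the threshold (adjusted p = 0.1 and 0.0803 by edgeR), as did LSS, with −1.25 ± 0.41 (adjusted p = 0.105 by edgeR). With the replicate number as a block, SREBF2, ACLY and LSS passed it (adjusted p = 0.0458, 0.0393 and 0.0428 by edgeR).

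In the DMSO libraries more of these genes were called higher than lower in UPCI-SCC-090, and calls were frequent over all genes as well. With DMSO, 11 of 30 genes were higher in UPCI-SCC-090 (36.7%) and 3 lower (10.0%) relative to UM-SCC-47, against 23.3% higher and 19.9% lower of all 14396 genes tested. The median log2 fold change of UPCI-SCC-090 over UM-SCC-47 was 0.66, against 0.15 over all genes. Without overlap of the libraries, 13 were above and 5 below (30.5% and 27.5% of all genes). FADS2 had the largest excess, at 226 to 409.6 CPM in UPCI-SCC-090 against 21.0 to 25.9 CPM in UM-SCC-47, a log2 fold change of 3.77 ± 0.31 (adjusted p = 2.06e-06 by edgeR). TM7SF2 was higher by 2.11 ± 0.32, SREBF1 by 1.66 ± 0.37, PMVK by 1.65 ± 0.31, DHCR7 by 1.30 ± 0.29, INSIG1 by 1.22 ± 0.20 and ACLY by 1.099 ± 0.25 (edgeR adjusted p at most 0.00356), and all 6 were called in each of 22 alternatives. FDPS, IDI1, HSD17B7 and ACAT2 were also higher, by 1.03 ± 0.27, 1.35 ± 0.48, 0.74 ± 0.23 and 0.67 ± 0.24 (adjusted p = 0.00934, 0.0403, 0.0208 and 0.041 by edgeR), and all 4 lost the call without UPCI-SCC-090 DMSO replicate 3 (adjusted p = 0.062, 0.225, 0.0937 and 0.267 by edgeR). ACAT2, IDI1 and HSD17B7 also lost it without any 1 of the UM-SCC-47 DMSO libraries and without some others, namely UPCI-SCC-090 JQ1 replicate 1 and UM-SCC-47 JQ1 replicates 1 and 3 for ACAT2 and IDI1, UPCI-SCC-090 DMSO replicate 2 for ACAT2 and HSD17B7, and UPCI-SCC-090 DMSO replicate 1 for IDI1 and HSD17B7 (adjusted p up to 0.208 by edgeR). Without UPCI-SCC-090 DMSO replicate 3, 7 of the 30 genes were higher, as were 2388 of all genes, against 3348 in the main fit. ELOVL6 was lower in UPCI-SCC-090, by −4.61 ± 0.81 (adjusted p = 6.71e-04 by edgeR), and was at 0.263 to 2.13 CPM there against 16.7 to 31.8 CPM in UM-SCC-47. ELOVL6 was too low for the test within UPCI-SCC-090 and passed the filter of this fit only through UM-SCC-47, where it is high. Its call, 1 of the 3 lower ones, is therefore no more than a description of these levels. FDFT1 and EBP were lower by −0.92 ± 0.27 and −0.85 ± 0.30 (adjusted p = 0.0174 and 0.0406 by edgeR), and both lost the call without UM-SCC-47 DMSO replicate 1 or 2 (adjusted p = 0.0504 and 0.0509 by edgeR for FDFT1, 0.117 and 0.0871 for EBP), leaving 1 gene called lower. EBP also lost it without UM-SCC-47 DMSO replicate 3, UM-SCC-47 JQ1 replicate 1 or UPCI-SCC-090 JQ1 replicate 1 (adjusted p = 0.0683, 0.0562 and 0.0561 by edgeR). Without UM-SCC-47 DMSO replicate 1 or 2, 2497 and 2594 of all genes were lower, against 2869 in the main fit. FASN, SCD, FADS1 and SREBF2 were not called (edgeR adjusted p 0.184 to 0.931). This comparison shares its DMSO libraries with the responses to JQ1 above, so their values are not independent.

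Per length of annotated exon, SCD ranked highest of the 30 genes in UPCI-SCC-090 with DMSO, at 246 CPM per kb, and in UM-SCC-47 with JQ1 and with DMSO, at 163 and 193 CPM per kb. In UPCI-SCC-090 with JQ1 it was at 54.4 CPM per kb, behind PMVK at 139.6 and FDPS at 73.8 CPM per kb. FASN was at 2.33 CPM per kb with JQ1 and 45.7 CPM per kb with DMSO in UPCI-SCC-090. ELOVL6 was the lowest in UPCI-SCC-090 with DMSO, at 0.138 CPM per kb. The length merges the exons of all annotated transcripts of a gene and is not that of the transcripts present. It was 1002 bp for PMVK, 5245 bp for SCD and 9018 bp for MVK, so the order depends on the annotation.

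**Figure D5:**
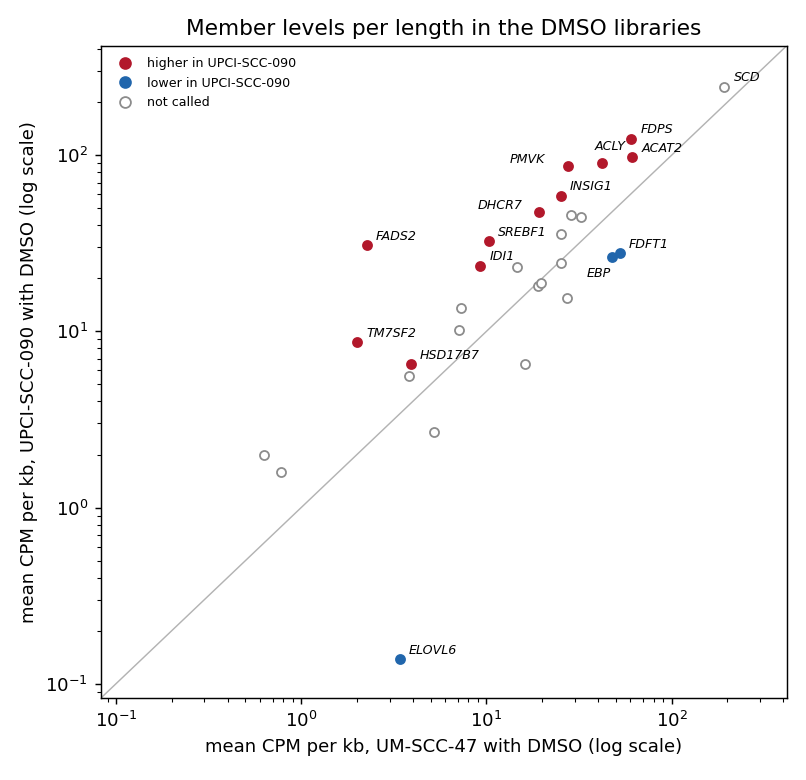
Mean CPM per kb of annotated exon of the 30 genes in the DMSO libraries of UPCI-SCC-090 (vertical axis) against UM-SCC-47 (horizontal axis), both on log scales, with the line of equal levels. Filled points are genes called higher (red) or lower (blue) in UPCI-SCC-090. FADS2 and TM7SF2 lie farthest above the line, ELOVL6 farthest below it, and SCD is the highest on both axes.

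The rest of lipid metabolism was read from 93 further genes in 7 lists. In UPCI-SCC-090, 10 of 89 tested fell (11.2%, against 20.4% of all genes) and 7 rose (7.87%, against 7.67%), so the share that rose was that of all genes, and the median log2 fold change was 0.19. In UM-SCC-47, 13 of 91 fell (14.3%, against 25.5% of all genes) and 26 rose (28.6%, against 16.1%), with a median of 0.28. Both medians were above those of the synthesis genes and of all genes. Without DMSO replicate 2 or 3, or JQ1 replicate 1 or 3, of UPCI-SCC-090 the genes that fell or rose there were as few as 3 and 2, and without JQ1 replicate 2 of that line 11 rose. Over all genes as few as 1009 fell and 371 rose in those fits, against 2680 and 1009 in the main fit. Without JQ1 replicate 2 of that line, 1303 of all genes rose. Without DMSO replicate 1, 2 or 3 of UM-SCC-47, 14, 17 and 15 rose there, and without DMSO replicate 1 or 3 of that line 8 fell. In the same fits 1198, 1498 and 1329 of all genes rose, against 2163 in the main fit. Without DMSO replicate 1 or 3, 2422 and 2579 of all genes fell, against 3431. With the replicate number as a block, 11 rose in UPCI-SCC-090 in place of 7, and 1361 of all genes in place of 1009.

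Among the genes that process SREBPs, MBTPS1, the site-1 protease, rose in UPCI-SCC-090 to 574 ± 167 CPM with JQ1, against 312 ± 54.9 CPM with DMSO, and was the only 1 of 10 called there. That is 10% higher, against 7.67% of all genes. In UM-SCC-47, 5 of 10 rose (50%, against 16.1% of all genes), among them RNF139, and 2 fell (20%, against 25.5%), RNF145 and ERLIN1. Of the LXR and efflux genes, MYLIP, a ubiquitin ligase that targets lipoprotein receptors, rose in both lines, to 151 ± 12.6 CPM with JQ1 against 75.5 ± 3.94 CPM with DMSO in UPCI-SCC-090 and to 41.6 ± 4.26 CPM with JQ1 against 16.2 ± 0.988 CPM with DMSO in UM-SCC-47. ABCG1, a sterol exporter, rose in UM-SCC-47, with a log2 fold change of 1.72 ± 0.18 (adjusted p = 8.47e-04 by edgeR). In the list of uptake and transport, NPC2, which moves cholesterol out of lysosomes, rose by 1.33 ± 0.22 in UPCI-SCC-090 and by 1.18 ± 0.23 in UM-SCC-47 (adjusted p = 0.00667 and 0.00797 by edgeR). LRP1, an endocytic receptor, fell by 3.40 ± 0.56 in UPCI-SCC-090 and by 2.18 ± 0.21 in UM-SCC-47 (adjusted p = 0.00689 and 5.61e-04 by edgeR). LRP8 fell in UPCI-SCC-090, by 2.41 ± 0.26, and TMEM97 in UM-SCC-47, by 1.26 ± 0.16 (adjusted p = 0.0037 and 0.00152 by edgeR).

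Beside the fatty acid branch, MID1IP1 and ACACB, an activator of acetyl-CoA carboxylase and the mitochondrial carboxylase, fell in UPCI-SCC-090, both by 1.95 on the log2 scale (adjusted p = 0.00876 and 0.0188 by edgeR). ACSL5, an acyl-CoA synthetase, fell in UM-SCC-47 to 2.35 ± 0.114 CPM with JQ1, against 34.8 ± 1.74 CPM with DMSO, whereas ACSL1 rose there to 35.3 ± 1.44 CPM with JQ1, against 9.35 ± 0.281 CPM with DMSO. DGAT1, which completes triglycerides, rose in both lines, to 106 ± 41.2 CPM with JQ1 against 32.3 ± 9.15 CPM with DMSO in UPCI-SCC-090 and to 86.8 ± 9.88 CPM with JQ1 against 16.8 ± 0.705 CPM with DMSO in UM-SCC-47 (adjusted p = 0.0114 and 1.57e-04 by edgeR). CPT1A, the gate of mitochondrial fatty acid oxidation, fell by 2.20 ± 0.34 in UPCI-SCC-090 and by 1.497 ± 0.20 in UM-SCC-47 (adjusted p = 0.00583 and 0.00192 by edgeR). HADHB, a subunit of the oxidation complex, rose by 0.95 ± 0.18 in UPCI-SCC-090 and by 0.68 ± 0.18 in UM-SCC-47 (adjusted p = 0.0101 and 0.0222 by edgeR).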

How the data were processed

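Total RNA was extracted with a mirVana kit and sequenced as stranded, ribosomal RNA depleted libraries, 3 per group. The authors estimated transcript abundance with Salmon, and the deposited table holds their unscaled estimated counts, 1 column per library and 1 value per gene. Salmon 0.8.2 and DESeq2 1.28.0 are the versions in the submitters' processing notes. For the index and genome build, none was stated in these sources. The estimated counts were rounded before testing with edgeR 4.0.16 (R 4.3.3). Genes were filtered by filterByExpr (minimum count 10, minimum total count 15) and scaled by TMM. Within each line, the quasi-likelihood F test compared JQ1 with DMSO. The difference between the lines and the DMSO comparison came from 1 fit over all libraries. P-values were Benjamini-Hochberg adjusted over all genes tested, and genes were called under 0.05. Each SE was obtained as the size of the log2 fold change over the root of its F value.

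Salmon divides reads among similar or overlapping transcripts. Symbols, coordinates, merged exon lengths and GC content came from GENCODE 44 lifted to GRCh37. It held 20015 of the gene IDs and not the other 723. The alternatives were other scalings, no filter, DESeq2 1.42.0, a replicate block, a loess correction for GC content, a fit over the 12 libraries, and libraries left out. Scripts were tested on simulated data. The main tests were unpaired in both lines, and the replicate number entered only the alternatives with a replicate block. Deviations of same-numbered JQ1 and DMSO libraries of UPCI-SCC-090 had correlations of 0.12, 0.85 and 0.23 for replicates 1, 2 and 3. All 3 were positive, and these libraries were taken as paired by number on that ground alone. The correlation was weak for replicates 1 and 3, and JQ1 replicate 3 correlated more with DMSO replicate 1 (0.87) than with its own number. In UM-SCC-47 the correlations were −0.25, 0.24 and 0.59. The labels do not say what a number shares. Replicates differed by more than sampling noise (chi-square per gene of 8.26 to 425), so none was a duplicate. The members and lists were chosen with earlier results of these data known. All members could be named, with values per library for those called in a line or in the difference and for the SREBP regulators. From each further list up to 2 called genes per line and direction were eligible, with the largest absolute log2 fold change and at least 5 CPM in the higher group.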

Additional observations from a re-analysis of the deposited data

Results flagged for a closer look

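The test of the difference in response between the lines picked out 8 genes whose log2 fold change with JQ1 was lower in UPCI-SCC-090 relative to UM-SCC-47 (edgeR interaction, adjusted p under 0.05). They are 26.7% of the genes tested here, against 3.63% of all genes, and only SCD kept its call in all 21 alternatives. The difference was −2.90 for FASN, −2.39 for SREBF1, −1.93 for SCD, −1.55 for FADS2, −1.15 for FADS1 and −1.02 for INSIG1, which were all lower with JQ1 in UPCI-SCC-090. It was −1.69 for DHCR7, which fell in UPCI-SCC-090 and was at 0.38 ± 0.18 in UM-SCC-47. It was −1.74 for TM7SF2, which rose in both lines. Groups of 3 libraries are too small to single out a library by its distance from the others.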

How the results depend on the processing

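The alternatives gave 2234 values of single genes, of which 844 belonged to a call of the main fit. Of these calls 172 were lost, and 133 calls were gained among the other values. Where the main fit or the alternative called the gene, 0 values changed sign. Another 101 values, called in neither, did. In UPCI-SCC-090, 12 of the synthesis genes fell, against 7 by DESeq2, 7 without the 3 libraries of the steepest GC trend and 5 to 13 without 1 library. There 1 rose, against 2 by DESeq2 and 4 with the GC correction, with or without the replicate block. Calls over all genes moved as well. In UPCI-SCC-090, 2680 of all genes fell, against 1980 by DESeq2, 2194 without the steep GC libraries and 1009 to 2801 without 1 library. There 1009 of all genes rose, against 1504 by DESeq2, 3210 with the GC correction and 3142 with block and GC correction. The UPCI-SCC-090 median of −0.76 was −0.63 with upper-quartile factors, −0.44 with RLE size factors, −0.94 with scaling to library size only, −0.58 without a filter, −0.43 by DESeq2, −0.81 with the replicate block, −0.45 with the GC correction, −0.50 with block and GC correction, −0.50 without the steep GC libraries, −0.61 in the fit over 12 libraries and −0.96 to −0.58 without 1 library. In UM-SCC-47, 8 fell, against 14 with library size only, 4 in the fit over 12 libraries, 3 with an absolute log2 fold change over 1 and 7 to 12 without 1 library. There 2 rose, against 1 with upper-quartile factors, library size only, the fit over 12 libraries or a log2 fold change over 1, 4 by DESeq2, 8 with the GC correction (with or without block), 5 without the steep GC libraries and 1 to 5 without 1 library. In UM-SCC-47, 3431 of all genes fell, against 4589 with library size only, 2489 in the fit over 12 libraries and 2422 to 3756 without 1 library. There 2163 of all genes rose, against 1840 with upper-quartile factors, 1456 with library size only and 1348 in the fit over 12 libraries. By DESeq2 2855 rose, with the GC correction 3314, with block and GC correction 3092 and without the steep GC libraries 3051. The UM-SCC-47 median of −0.32 was −0.14 by DESeq2, −0.16 with RLE size factors, −0.58 with scaling to library size only, −0.20 with the GC correction, −0.21 with block and GC correction, −0.13 without the steep GC libraries and −0.33 to −0.13 without 1 library. Of the further lipid genes, 10 fell in UPCI-SCC-090, against 6 with RLE size factors, 5 without the steep GC libraries and 3 to 10 without 1 library. There 7 rose, against 3 with library size only or a log2 fold change over 1, 11 with RLE size factors or the replicate block, 32 with the GC correction (with or without block), 18 in the fit over 12 libraries and 2 to 11 without 1 library. In UM-SCC-47, 13 of them fell, against 8 with RLE size factors, by DESeq2 or in the fit over 12 libraries, 22 with library size only, 7 with a log2 fold change over 1 and 8 to 13 without 1 library, and 26 rose, against 41 with the GC correction, 17 in the fit over 12 libraries, 12 with a log2 fold change over 1 and 14 to 36 without 1 library. Beside the counts over all genes given above, with RLE size factors 1755 fell and 1287 rose in UPCI-SCC-090, and 2846 fell in UM-SCC-47. In UPCI-SCC-090, 635 of all genes rose with library size only, 1361 with the replicate block and 1915 in the fit over 12 libraries. In UM-SCC-47, 2786 of all genes fell by DESeq2. In the difference between the lines, 8 of the synthesis genes were lower, against 3 with RLE size factors, 4 with upper-quartile factors, 13 with block and GC correction, 3 without the steep GC libraries and 1 to 11 without 1 library, and 0 were higher, against 3 with the GC correction, with or without block. Among all genes 523 were lower, against 428, 454, 1514, 326 and 256 to 1123 in the same order. Higher were 422 of all genes, against 1393 with the GC correction and 1329 with block and GC correction. With DMSO, 3 of the synthesis genes were lower in UPCI-SCC-090, against 5 with the replicate block or from the 6 DMSO libraries alone, 7 with the GC correction (with or without block) and 1 to 4 without 1 library, and 11 were higher, against 7 to 15 without 1 library. Among all genes 2869 were lower, against 3273 with the block, 3571 from the 6 DMSO libraries alone and 2497 to 3540 without 1 library. With the GC correction 4396 were lower, and 4581 with block and GC correction. Higher were 3348 of all genes, against 2388 to 3897 without 1 library. With the replicate block 0 calls of single genes were lost and 11 gained, among them in UM-SCC-47 ELOVL6 at −0.89 and STARD4 at −1.73, and in the difference SREBF2, ACLY and LSS (adjusted p = 0.0458, 0.0393 and 0.0428 by edgeR). Same-numbered libraries of UM-SCC-47 are not taken as paired, and the main tests of UPCI-SCC-090 do not use its pairing either. Except where stated above, the cause of a change was not tested. With 3 libraries per group, small changes can be missed, most in UPCI-SCC-090, where replicates varied more.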
